A study of Mus musculus with 12 samples.

Results

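The genes of cholesterol synthesis, sensing and transport were examined in lower motor neurons of a mouse knock-in of the Q331K change in TDP-43. They numbered 30 of the 25965 gene entries in the deposited count table: 7 enzymes of the mevalonate branch, 12 enzymes of the squalene and sterol branch, 5 sensing genes and 6 genes of transport and storage. They were chosen by name. Of these, 29 stood in the table under their own symbol and 1, Msmo1, under its older name Sc4mol. The list does not hold every enzyme of the pathway. Some other genes of the pathway are described at the end of the results, and the rest were not analysed here. All 30 members passed the filter on low counts, and the lowest count of any member in any library was 144, for Abca1.

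TDP-43, the product of Tardbp, is an RNA-binding protein, and Q331K is a substitution found in amyotrophic lateral sclerosis. Neurons were captured by laser from the lumbar cord at 5 months of age, on a C57BL/6 background. There were 12 libraries: 4 from wild type mice (+/+), 4 from heterozygotes with 1 mutant allele (Q331K/+) and 4 from homozygotes with 2 (Q331K/Q331K). Whether a library stands for 1 animal is not stated in the labels, and p-values here measure only the spread between libraries, which may be technical. Tardbp itself was at 62.3 to 78.7 CPM in the 12 libraries, where CPM is the count scaled to a common library total. The mutation changes an amino acid, so the level of the transcript does not check the genotype labels.

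Neurons make cholesterol from acetyl-CoA through mevalonate, farnesyl diphosphate and squalene to lanosterol and its later sterols, and they also take up cholesterol that astrocytes release on apolipoprotein E. When sterols in the endoplasmic reticulum fall, Scap escorts the SREBP proteins (products of Srebf1 and Srebf2) to the Golgi, where they are cut to free transcription factors that raise the genes of synthesis. The Insig proteins hold Scap back when sterols are plentiful. SREBP-2 binds sterol regulatory elements, usually with NF-Y at a nearby CCAAT box.

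Some features of the libraries bear on every comparison below. Heterozygote replicate 1 and homozygote replicate 1 held almost no interneuron RNA. Slc17a6, the glutamate transporter of excitatory neurons, was at 0.563 and 4.52 CPM in them and at 159.7 to 323 CPM in the other 10, and all 5 interneuron markers lay below the other 10 libraries in both. Of 7 motor neuron markers measured, 6 lay above the other 10 in both, and Chat, the enzyme that makes acetylcholine, was at 353 and 329 CPM against 63.5 to 241 CPM. Of 8 astrocyte markers, 1 lay below the other 10 libraries in both, Aldoc, at 467 and 511 CPM against 791 to 1280.5 CPM. Aldoc made up most of the summed astrocyte markers, which were 563 and 643 CPM against 917 to 1555 CPM. The water channel Aqp4 was at 23.5 and 25.9 CPM, below wild type replicate 3 (30.5 CPM) and above the other 9. Their summed oligodendrocyte markers (1187 and 1601 CPM) lay within the range of the others (934 to 2816 CPM). Wild type replicate 3 had the highest sums of oligodendrocyte (2816 CPM) and astrocyte (1555 CPM) markers of the 12. Summed microglial markers were at 17.3 to 47.8 CPM and endothelial markers at 1.05 to 12.6 CPM. Total counts ran from 60886825 to 83504446. In bulk material such as this, fewer cells of a type and less RNA per cell cannot be told apart.

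Promoters are shown for 4 enzymes that stood high in both interneuron-poor libraries, and for Apoe, which did not. The 4 are among the members with the most CCAAT matches, and the counts of the others are given below. Each sequence is the RefSeq stretch of 300 bases in GRCm38.p6, from 250 before to 50 after the start of the transcript, on the strand of the gene. Capitals mark matches to CCAAT or its complement ATTGG and, in Hmgcs1, to the sterol regulatory element TCACNCCAC, where N is any base. The stretches are Hmgcs1 at chr13:119690101-119690400, plus strand, Mvk at chr5:114444019-114444318, plus strand, Msmo1 at chr8:64733529-64733828, minus strand, Hsd17b7 at chr1:169969156-169969455, minus strand, and Apoe at chr7:19699139-19699438, minus strand.
Hmgcs1: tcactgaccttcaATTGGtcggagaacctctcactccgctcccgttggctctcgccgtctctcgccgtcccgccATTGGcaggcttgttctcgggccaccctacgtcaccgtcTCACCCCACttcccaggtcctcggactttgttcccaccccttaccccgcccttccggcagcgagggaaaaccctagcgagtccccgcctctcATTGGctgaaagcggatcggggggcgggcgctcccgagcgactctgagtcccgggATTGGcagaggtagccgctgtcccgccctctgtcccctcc
Mvk: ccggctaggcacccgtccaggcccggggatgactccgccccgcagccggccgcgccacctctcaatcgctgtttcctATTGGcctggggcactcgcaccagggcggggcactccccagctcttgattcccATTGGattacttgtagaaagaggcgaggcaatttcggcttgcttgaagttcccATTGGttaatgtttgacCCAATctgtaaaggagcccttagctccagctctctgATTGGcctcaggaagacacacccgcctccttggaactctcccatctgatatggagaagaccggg
Msmo1: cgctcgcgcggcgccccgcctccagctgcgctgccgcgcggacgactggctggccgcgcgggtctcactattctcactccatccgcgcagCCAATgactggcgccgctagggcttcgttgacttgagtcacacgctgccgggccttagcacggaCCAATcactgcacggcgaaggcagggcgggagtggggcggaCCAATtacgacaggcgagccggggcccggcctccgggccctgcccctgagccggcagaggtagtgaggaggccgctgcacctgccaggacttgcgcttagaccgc
Hsd17b7: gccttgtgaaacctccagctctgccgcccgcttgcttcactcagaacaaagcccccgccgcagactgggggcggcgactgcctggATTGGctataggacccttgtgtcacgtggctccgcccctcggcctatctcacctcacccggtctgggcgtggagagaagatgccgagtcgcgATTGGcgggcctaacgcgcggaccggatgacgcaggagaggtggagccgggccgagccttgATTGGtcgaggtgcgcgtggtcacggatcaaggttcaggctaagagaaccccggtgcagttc
Apoe: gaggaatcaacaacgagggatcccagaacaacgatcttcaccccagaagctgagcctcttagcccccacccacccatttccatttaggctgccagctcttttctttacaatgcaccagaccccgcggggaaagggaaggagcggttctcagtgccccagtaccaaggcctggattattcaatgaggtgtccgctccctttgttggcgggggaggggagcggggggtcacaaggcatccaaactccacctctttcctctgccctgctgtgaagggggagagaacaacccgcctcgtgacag

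RefSeq promoters were matched for 25 of the 30 members. None was matched for Fdps, Fdft1, Sqle, Stard4 and Npc1, so these were not searched. Both strands were searched, and a gene with several listed starts was counted once if any of its promoters held the motif; for Apoe, the first listed of its starts is shown. CCAAT was found in 21 of the 25, and in 15 of 16 synthesis enzymes, against 41.1% of all 27025 genes with a promoter of this length. Those 27025 were not limited to genes that passed the filter on low counts. Among the other genes of the pathway described at the end, 15 of 28 searched held it (53.6%). Counted at the start with the most matches, Mvk held 5 matches, Hmgcs1 and Nsdhl 4 each, and Msmo1 and Hsd17b7 3 each. Among the other enzymes high in both libraries, Mvd and Dhcr7 held 2 each and Pmvk, Tm7sf2 and Sc5d 1 each. Of members outside that pattern, Insig2 held 3, and Idi1, Ebp, Lbr and Npc2 2 each. Lss, Cyp51, Insig1, Srebf1, Srebf2 and Soat1 held 1 each. The only enzyme searched with none was Acat2, which also stood high in both libraries. Among the other members Scap, Abca1 and Apoe held none. Of the members searched, the sterol regulatory element was found in Hmgcs1 alone, against 1.44% of all genes. It lay 137 bases before the RefSeq start and overlapped no CCAAT match. In the GENCODE annotation the gene begins later, at position 119690379. The shorter form CACCCCAC was in Hmgcs1 and Acat2, against 3.3% of all genes. A match is a string of letters and not a measured binding site.

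Levels of different genes were compared per kilobase of transcript, as CPM divided by the length of the main transcript. In wild type, the highest was Fdps, which makes farnesyl diphosphate, at 152 ± 32 CPM per kilobase (SD, n = 4). Next came Apoe, the lipoprotein of cholesterol transport, at 127 ± 62.1, and Msmo1, a sterol methyl oxidase, at 95.8 ± 6.67 CPM per kilobase. The enzymes Acat2 (82.9), Pmvk (70.6), Fdft1 (68), Hmgcs1 (65.9) and Sqle (57.3) followed on the same scale. In the middle of the order were Cyp51 (36.1), Mvk (31.3), Nsdhl (28.4), Npc2 (27.7), Tm7sf2 (24.8), Sc5d (22.2), Mvd (21.1), Ebp (17.8), Dhcr7 (15.3), Hsd17b7 (12), Idi1 (9.21), Npc1 (6.94) and Lss (5.63 CPM per kilobase). Among sensing genes the retention proteins Insig2 (49.5 ± 2.06) and Insig1 (41.5 ± 4.19) stood above Srebf2 (13.1 ± 1.23), the escort Scap (11.8 ± 1.72) and Srebf1 (8.45 ± 2.05 CPM per kilobase). The lowest were Stard4 (3.72), Lbr (2.63), Soat1 (2.33) and Abca1 (1.04 CPM per kilobase), where Stard4 carries sterol through the cytosol, Soat1 esterifies cholesterol for storage and Abca1 exports it. The 4 libraries of neighbours in this order overlapped for 28 of 29 neighbour pairs, so the order holds only over wider steps. It also depends on the length used: per kilobase of all exons merged, Fdps stood below Apoe, Acat2 and Fdft1. Msmo1 fell from rank 3 to rank 10 on that scale, below Fdft1 and Cyp51 of its own branch.

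**Figure D1:**
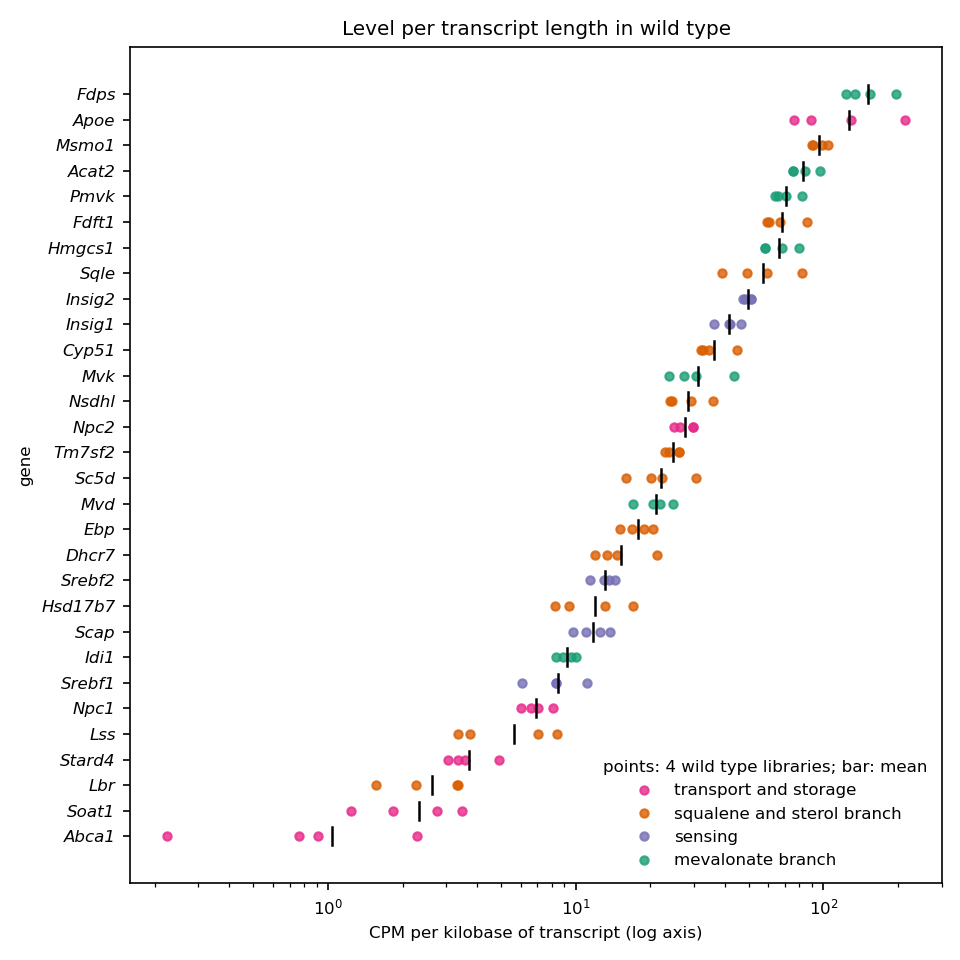
Level of each of the 30 genes in the 4 wild type libraries (points, coloured by role) with their mean (bar), as CPM per kilobase of the main transcript on a log axis. Fdps is highest at a mean of 152 and Abca1 lowest at 1.04, and the points of neighbouring genes overlap for 28 of 29 pairs.

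None of the 30 genes passed the test for genotype across the whole table. In edgeR's quasi-likelihood test with Benjamini-Hochberg adjustment over 16338 genes, 0 members passed an adjusted p of 0.05 in homozygotes against wild type, where 0.00612% of all genes passed. None passed in heterozygotes against wild type, in homozygotes against heterozygotes or for any genotype difference, where 0% of all genes passed, nor for a slope on the number of mutant alleles (0.00612%). At an unadjusted p below 0.05, members numbered 1 of 30 in homozygotes against wild type (4.92% of all genes), 1 in heterozygotes against wild type (4.12%), 0 in homozygotes against heterozygotes (2.99%), 0 for any difference (3.57%) and 2 for the slope (4.76%). DESeq2 and limma-voom also called 0 members in each comparison. Over all genes in homozygotes against wild type DESeq2 called 13 and limma-voom 1, and DESeq2 called 9 in heterozygotes against wild type, 3 between the mutants, 5 for any difference and 12 for the slope. The 4 libraries of each genotype overlapped those of each other genotype for every member. Over all genes, 1.29% lay wholly higher and 2.12% wholly lower in homozygotes than in wild type, 1.48% and 1.76% in heterozygotes than in wild type, and 1.03% and 0.998% in homozygotes than in heterozygotes.

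**Figure D2:**
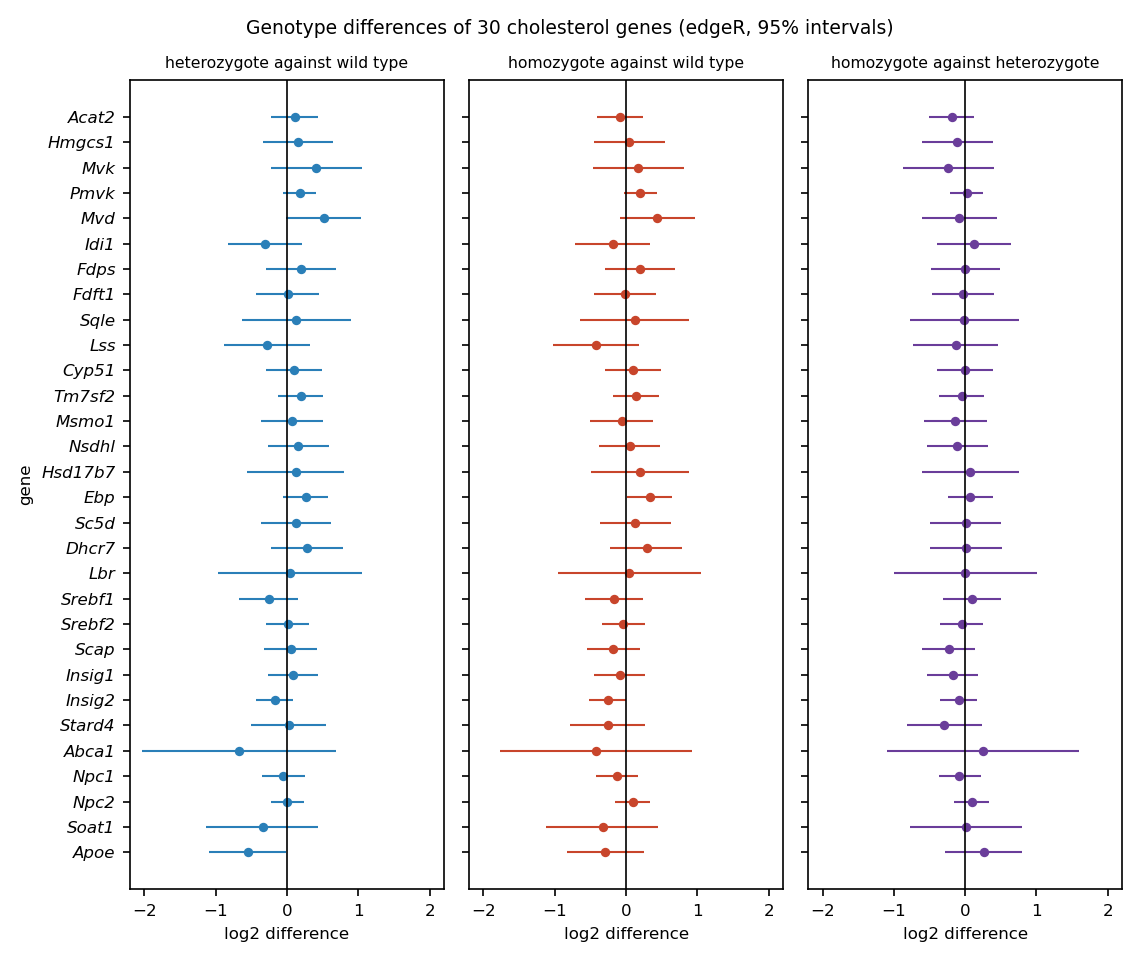
Log2 difference of each of the 30 genes with its 95% interval from the edgeR model, in heterozygotes and homozygotes against wild type and in homozygotes against heterozygotes. Apart from Ebp in homozygotes (0.01 to 0.64) and Apoe in heterozygotes (-1.09 to -0.01) against wild type, the intervals reach 0.

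Ebp, the sterol isomerase, had the smallest p of the members in homozygotes against wild type. Its wild type libraries were at 26.3, 29.5, 35.7 and 32.9 CPM, the heterozygotes at 42.2, 36.1, 39.3 and 31, and the homozygotes at 43.1, 38.7, 43 and 31.4 CPM. Homozygote replicate 4 fell inside the wild type range and the other 3 lay above it. In log2 units homozygotes differed by 0.33 (95% interval 0.01 to 0.64, SE 0.15, edgeR adjusted p = 0.99), and in heterozygotes against wild type it was 0.26 (SE 0.15, adjusted p = 0.999). Ebp (ENSMUSG00000031168) lies on the minus strand of chromosome X from 8185329 to 8193512 in GRCm38.

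Insig2 went the other way. Wild type libraries were at 128, 129.6, 138 and 138 CPM, heterozygotes at 105, 119, 135 and 117 and homozygotes at 92.7, 112, 102 and 139.8. Of the homozygotes, 3 lay below every wild type library and replicate 4 above them all. Its log2 difference was -0.26 (SE 0.12, adjusted p = 0.99 in edgeR) in homozygotes and -0.17 (SE 0.12, adjusted p = 0.999) in heterozygotes against wild type. Without replicate 1 of the mutant compared these were -0.17 and -0.11. Ebp and Insig2 were the 2 members with an unadjusted p below 0.05 for the allele slope, at 0.16 (SE 0.07) and -0.13 (SE 0.06) log2 per mutant allele, and both had an adjusted p of 0.985 in edgeR.

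The mevalonate enzymes Mvd, the decarboxylase, and Pmvk, phosphomevalonate kinase, had positive differences in both mutants. For Mvd, wild type libraries were at 43.4, 36.1, 30 and 38.5 CPM, heterozygotes at 81, 40.7, 39.7 and 50.5 and homozygotes at 64.9, 43.3, 56.8 and 35.4. Replicate 1 was the highest library of each genotype. Its log2 difference from wild type was 0.52 (SE 0.24, adjusted p = 0.999 in edgeR) in heterozygotes and 0.44 (SE 0.24, adjusted p = 0.99) in homozygotes. Without replicate 1 of the mutant compared, these were 0.24 and 0.29. Mvd overlaps the opposite-strand entry Gm20388, which had 72.9% as many counts, and the kits keep no strand. Pmvk libraries of the wild type were at 97.7, 84.6, 78.6 and 76.1 CPM, of heterozygotes at 114, 89.9, 87.3 and 89.6 and of homozygotes at 99.8, 96, 97.5 and 94.1, and wild type replicate 1 reached into the range of both mutants. The Pmvk log2 difference was 0.20 (SE 0.11, adjusted p = 0.99) in homozygotes and 0.18 (SE 0.11, adjusted p = 0.999) in heterozygotes against wild type. Without heterozygote replicate 1 the latter was 0.08.

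Lss, lanosterol synthase, was split within wild type, at 32.8, 39.2, 15.7 and 17.5 CPM. Heterozygotes were at 18.8, 21.2, 23.8 and 22.6 CPM and homozygotes at 17.2, 21.6, 25 and 14.9. The higher pair of wild type libraries lay above all 8 mutant libraries and the lower pair within the mutant range. Homozygotes differed by -0.42 on the log2 scale (SE 0.28, edgeR adjusted p = 0.99), by -0.28 without wild type replicate 1 and by -0.16 without wild type replicate 2.

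Apoe had the smallest p in heterozygotes against wild type. Its wild type libraries were at 107, 126, 301 and 182 CPM, heterozygotes at 109, 124, 128 and 127 and homozygotes at 140.0, 151, 169 and 127. A single library, wild type replicate 3, stood far above the rest, and the other 3 wild type libraries spanned the range of both mutants. Heterozygotes differed by -0.55 on the log2 scale (95% interval -1.09 to -0.01, SE 0.25, edgeR adjusted p = 0.999), and without wild type replicate 3 it was -0.17. That library also had the highest level of Mbp, a myelin protein, at 1445 CPM against 412 to 719 CPM in the other 11, and of the astrocyte filament Gfap at 79.1 CPM, beside its high sums of glial markers; the part of glial RNA in the Apoe values was not tested. Homozygotes differed from heterozygotes in Apoe by 0.26 (SE 0.25, adjusted p = 1 in edgeR). Apoe (ENSMUSG00000002985) is annotated in the table from 19696109 to 19699166 on the minus strand of chromosome 7.

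The remaining differences with the smallest p between homozygotes and heterozygotes were small. Scap was at 63.6, 54.8, 40.9 and 46.6 CPM in heterozygotes and 45.2, 44.1, 33.3 and 53.1 in homozygotes (log2 difference -0.23, SE 0.17). Acat2, which joins acetyl-CoA units, was at 257, 194, 165 and 188 against 221, 153, 166 and 164 CPM (-0.19, SE 0.15). Stard4 was at 25.3, 17.8, 11.3 and 23 against 19.3, 14.2, 15.5 and 14.2 CPM (-0.29, SE 0.24). Insig1 was at 155, 93.7, 128 and 97.5 against 127, 96.5, 110.1 and 86.7 CPM (-0.17, SE 0.16), with wild type at 113, 125, 97.4 and 112 CPM. For these 4 genes the adjusted p in edgeR was 1 and the libraries of the mutants overlapped. Without heterozygote replicate 1 the differences were -0.11 for Scap, -0.05 for Acat2, -0.13 for Stard4 and -0.02 for Insig1. Scap was also at -0.11 without homozygote replicate 3, Acat2 at -0.31 without homozygote replicate 1, Stard4 at -0.48 without heterozygote replicate 3, and Insig1 at -0.10 without homozygote replicate 4, -0.26 without heterozygote replicate 4 and -0.27 without heterozygote replicate 2 or homozygote replicate 1.

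Srebf2, which encodes SREBP-2, differed between genotypes by less than the spread: wild type averaged 66.5 ± 6.27 CPM, heterozygotes 67.1 ± 13.5 and homozygotes 64.7 ± 3.24 (SD, 4 libraries each). Wild type libraries were at 73.1, 65.9, 69 and 58.2 CPM, heterozygotes at 79.4, 71.5, 69.6 and 47.8 and homozygotes at 67.3, 60.8, 67.5 and 63.4. For Srebf1, the wild type stood at 47.6, 35.7, 35.9 and 26.1 CPM, heterozygotes at 39.1, 24.5, 26 and 31.7 and homozygotes at 31.4, 30, 32.8 and 35.1. Srebf1 overlaps Rai1, which had 55.5% as many counts on the opposite strand. All 5 sensing genes had a negative log2 difference between homozygotes and wild type (median -0.17), where 49.4% of all genes were positive, and none passed. Their median was -0.08, with 1 positive, without wild type replicate 1 and -0.11 without homozygote replicate 3. In heterozygotes against wild type 3 of 5 were positive (median 0.01), where 49.7% of all genes were, and the median was -0.03 without wild type replicate 2, -0.04 without wild type replicate 4 and -0.08 without heterozygote replicate 1. Of 6 transport genes 5 were negative in homozygotes (median -0.28), but the median was -0.06 without wild type replicate 1, -0.13 without wild type replicate 3 and -0.16 without homozygote replicate 4. In heterozygotes 4 of 6 were negative (median -0.20), and the median was 0.04 without wild type replicate 1 and -0.09 without wild type replicate 3. Abca1, the export pump, spread widely, with wild type libraries at 23.4, 2.3, 7.84 and 9.35 CPM, heterozygotes at 10.9, 4.67, 9.12 and 2.18 and homozygotes at 3.78, 7.26, 9.53 and 11.5. Npc2, the partner of Npc1 in lysosomes, had a wild type mean of 91.4 ± 8.21 CPM and a homozygote mean of 97.5 ± 10.4. Soat1 had means of 19.5 ± 8.29 and 15.5 ± 6.55 CPM in that order (SD, 4 libraries each).

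The 19 synthesis enzymes had mostly positive differences in the mutants, none of which passed. Their median log2 difference from wild type was 0.13 in heterozygotes, with 17 of 19 positive, and 0.12 in homozygotes, with 14 of 19 positive, while the median over all genes tested was -0.0013 and -0.0032. Between homozygotes and heterozygotes the median was -0.02. These signs rested on single libraries. Without heterozygote replicate 1 the heterozygote median was -0.03 with 8 of 19 positive, and without homozygote replicate 1 the homozygote median was -0.07 with 7 of 19 positive. Leaving out wild type replicate 1 instead gave 0.22 and 0.23. Over all 30 members the medians were 0.08 and 0.01 against wild type, and -0.07 and -0.15 without both interneuron-poor libraries.

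The widest split among the enzymes lay between libraries of the same genotype. Of 19 synthesis enzymes, 14 were higher in both heterozygote replicate 1 and homozygote replicate 1 than in any of the other 10 libraries, where 10.3% of all 16338 genes were so. This was 6 of 7 in the mevalonate branch and 8 of 12 in the squalene and sterol branch. None of the 5 sensing and 6 transport genes was. Insig1, Srebf2, Scap and Stard4 lay above the other 10 in heterozygote replicate 1 only. For Insig1 and Stard4 the mean of the 2 libraries was 1.33 and 1.3 times that of the other 10. Those ratios lie within the range of the 14 enzymes (1.2 to 2.06). The 5 enzymes outside the pattern were Idi1, Lss, Cyp51, Ebp and Lbr. No enzyme lay below the other 10 in both, and among all members Npc1, which passes cholesterol out of lysosomes, was the only one to do so, at 29.1 and 30 CPM against 31.4 to 42.4 CPM (10.6% of all genes lay below). Npc1 overlaps 3110002H16Rik on the opposite strand, with 393% as many counts. These libraries were set apart after their marker values were seen, so these counts are descriptions. The 2 libraries had the lowest TMM factors, 0.9417 and 0.94 against 0.9883 to 1.029, which raises their CPM for every gene. In homozygote replicate 1, Acat2 (221 against at most 218 CPM) and Pmvk (99.8 against at most 97.7 CPM) cleared the other 10 narrowly. The count of 14 was not taken on unscaled library totals.

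**Figure D3:**
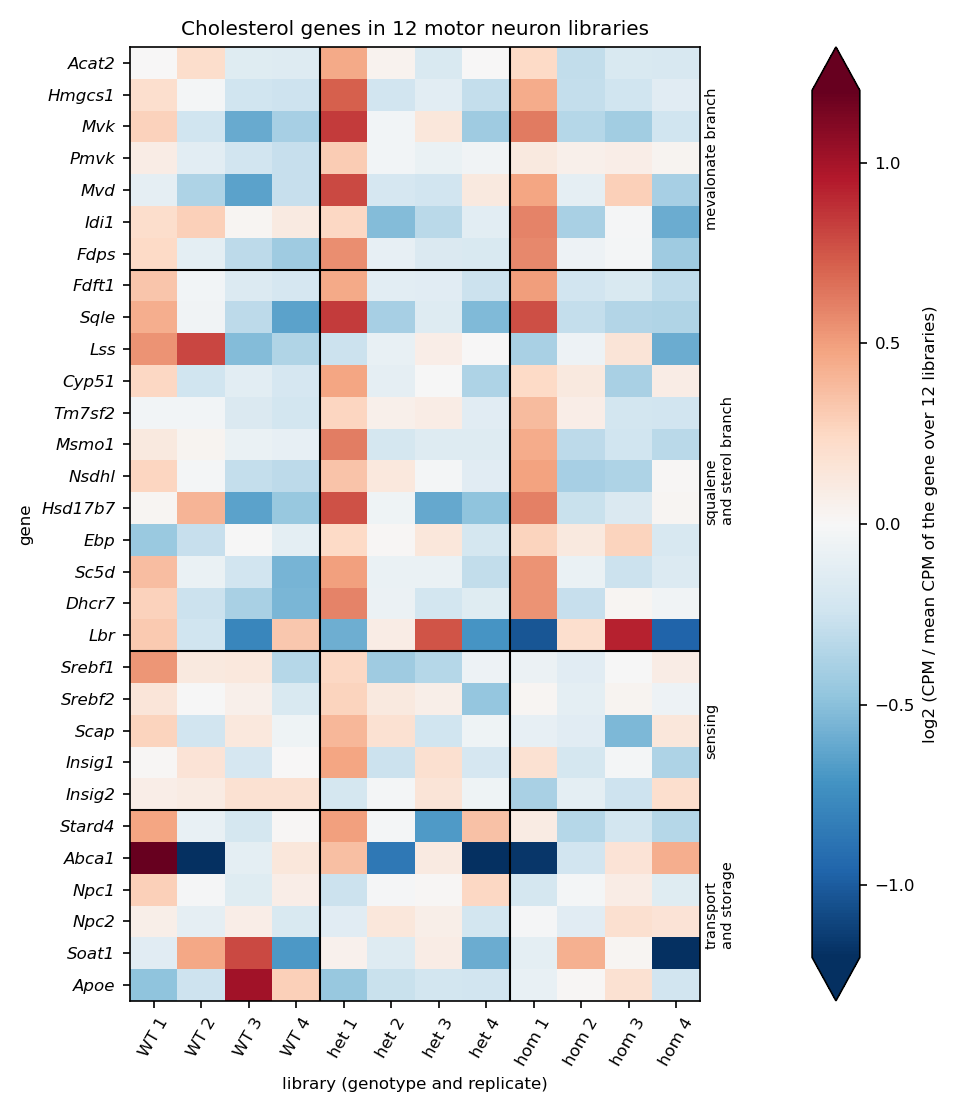
Each gene in each library as the log2 ratio of its CPM to its mean over the 12 libraries, in rows by role and columns by genotype (WT, wild type; het, heterozygote; hom, homozygote). Heterozygote replicate 1 and homozygote replicate 1 are red in most of the 19 enzyme rows, and the 11 sensing and transport rows are mixed.

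Squalene epoxidase, Sqle, a rate-limiting step, showed the largest ratio. It was at 299 CPM in heterozygote replicate 1 and 287 CPM in homozygote replicate 1. The other heterozygotes were at 127, 150.5 and 116 CPM, the other homozygotes at 137, 131 and 130.3 and wild type at 226, 163, 135 and 107 CPM. The mean of the 2 libraries was 2.06 times that of the other 10. Mevalonate kinase, Mvk, followed at 107 and 92 CPM against 39.5 to 72.5 CPM, a ratio of 1.92, and the reductase Hsd17b7 at 101 and 90.2 CPM against 38.1 to 78.7 CPM, a ratio of 1.83. HMG-CoA synthase, Hmgcs1, was at 394 and 326 CPM against 196 to 275 CPM, a ratio of 1.68. Fdps stood at 339 CPM in heterozygote replicate 1, above 215, 204 and 203 in its genotype, and at 344 in homozygote replicate 1, above 221, 227 and 171 CPM. Msmo1 stood at 301 above 169.8, 176 and 177 CPM in heterozygotes and at 268 above 158, 167 and 157 CPM in homozygotes, with wild type at 213, 201, 186 and 184 CPM. These genes were picked for standing high in replicate 1 of both mutant genotypes, so the split in both is not a separate result. The ratio was 1.76 for Mvd, 1.64 for the reductase Dhcr7, 1.56 for the desaturase Sc5d, 1.51 for squalene synthase Fdft1, 1.43 for the dehydrogenase Nsdhl, 1.35 for Acat2 and 1.2 for Pmvk.

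Of the 5 enzymes that were not above all other 10 in both libraries, Idi1 (ratio 1.45), Cyp51 (1.36) and Ebp (1.24) had ratios within the range of the 14, and for each of them 1 of the 2 libraries was above all 10. The other two, Lbr and Lss, had ratios below 1. Lbr, the lamin B receptor, which also reduces sterols, stood at a ratio of 0.534. Its libraries were at 11.7, 7.98, 5.47 and 11.8 CPM in wild type, at 6.27, 10, 15.9 and 5.75 in heterozygotes and at 4.63, 10.8, 17.8 and 4.83 in homozygotes, so its extremes lay within the mutant genotypes. Tm7sf2, which carries out the same sterol reduction, was at 47.1 and 51.4 CPM against 33.7 to 42 CPM, a ratio of 1.32; it overlaps 1110014N23Rik on the same strand, with 144% as many counts. Lss stood at 0.768. Idi1, the isomerase of isopentenyl diphosphate, was at 29.7, 17.4, 20 and 22.9 CPM in heterozygotes, at 37.7, 19.1, 24.7 and 16.5 in homozygotes and at 28.9, 30.4, 25.3 and 26.9 in wild type. Replicate 1 was the highest Idi1 library of both mutant genotypes. The lanosterol demethylase Cyp51 had 206 and 175 CPM in the 2 libraries, and 113 to 176 CPM elsewhere. Ebp had 42.2 and 43.1 CPM in them, and 26.3 to 43 CPM elsewhere.

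**Figure D4:**
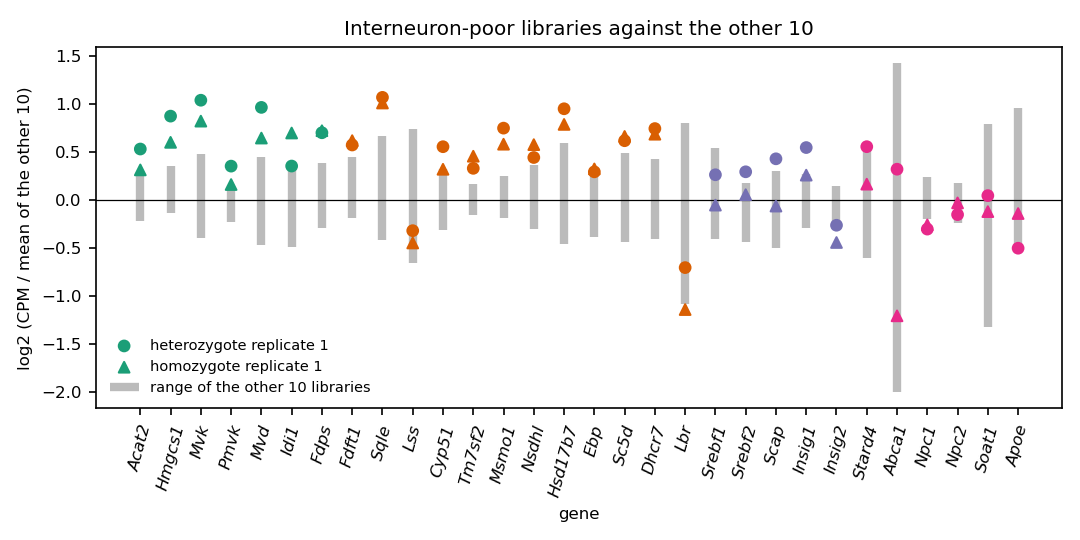
Log2 ratio of heterozygote replicate 1 (circles) and homozygote replicate 1 (triangles) to the mean of the other 10 libraries for each gene, coloured by role, with the range of those 10 as grey bars. Both symbols lie above the bar for 14 of the 19 enzymes and for none of the 11 sensing and transport genes.

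The median log2 ratio of the 2 libraries to the other 10 was 0.71 for the mevalonate branch, 0.56 for the squalene and sterol branch, 0.18 for sensing genes and -0.17 for transport genes, against -0.05 for all genes. Among sensing genes Insig1 had a ratio of 1.33 and Insig2 of 0.784, and Srebf2 of 1.13. The summed CPM of the 19 enzymes was 3004 and 2805 in the 2 libraries and 1668 to 2364 in the others, a ratio of 1.56. The sum of the 7 motor neuron markers had a ratio of 1.91, the neurofilament gene Nefh 1.58 and Chat 2.52. Per 1000 CPM of motor neuron markers, the enzymes came to 273 and 256 CPM in the 2 libraries and 297 to 389 CPM in the others. This depends on the markers summed. Nefh made up most of the sum in the 2 libraries (6832 of 11002 and 6946 of 10939 CPM), and its ratio was near that of the enzymes. Chodl had a ratio of 4.07, at 1488 and 1459 CPM against 191 to 574 CPM. Of the 15 enzymes that overlap no other entry of the table, 11 were above the other 10 libraries in both, and of the 4 that do, 3 were. Ctsb, an opposite-strand neighbour that overlaps Fdft1 and had 441% as many counts, was at 1015 and 1009 CPM in the 2 libraries, within 1008 to 1222 CPM in the others. The part of motor neuron content in the enzyme levels was not tested.

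The same libraries held the highest values within their genotypes. Replicate 1 was the highest of the 4 heterozygote libraries for 17 of 19 enzymes (31.9% of all genes), of the 4 homozygote libraries for 17 of 19 (29.5%) and of the 4 wild type libraries for 13 of 19 (30.1%). In the mutants these counts include by definition the 14 enzymes counted above, so they largely restate that split. Wild type replicate 1 had the highest Chat of the wild type, at 241 CPM against 129, 88.7 and 63.5 CPM in the others. Its Slc17a6 was at 235 CPM, against 323, 282 and 236 CPM. Inhibitory interneuron markers stood in the reverse order of Chat in the 4 wild type libraries, with sums of 178, 212, 393 and 421 CPM, and the part of either cell type in the enzyme order was not tested. Of the 19 enzymes, 10 stood in the same order as Chat in the 4 wild type libraries (6.33% of all genes): Hmgcs1, Pmvk, Fdps, Fdft1, Sqle, Tm7sf2, Msmo1, Nsdhl, Sc5d and Dhcr7. None of the 11 sensing and transport genes did. In Fdps the wild type values were 272, 213, 186 and 171 CPM, and in Dhcr7 60, 41.2, 37.8 and 33.8 CPM, each beside Chat at 241, 129, 88.7 and 63.5 CPM.

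**Figure D5:**
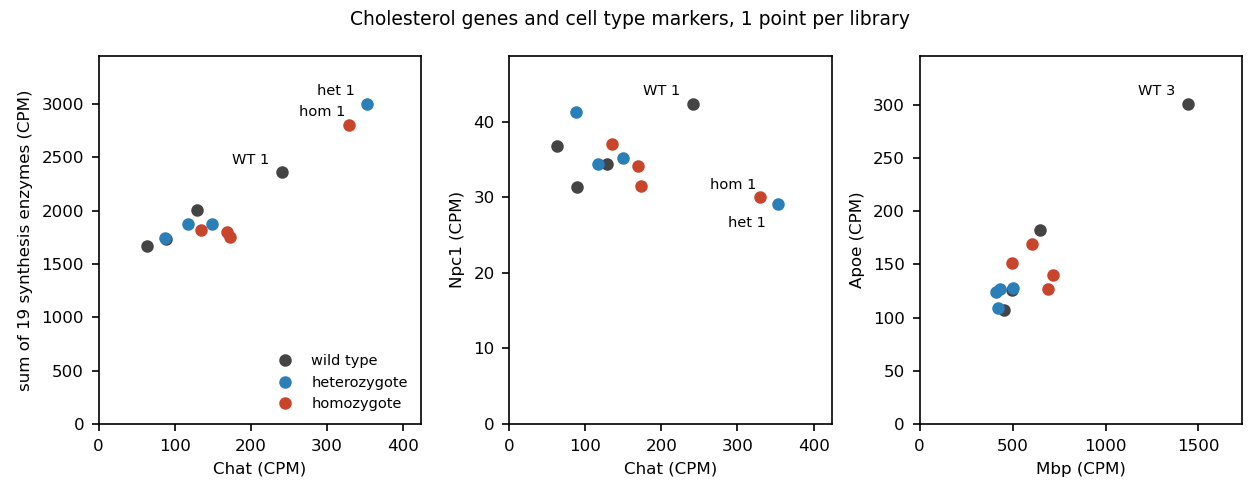
Values by library, coloured by genotype: the sum of the 19 enzymes against Chat, Npc1 against Chat and Apoe against Mbp, all in CPM on linear axes from 0. The interneuron-poor libraries hold the highest enzyme sums (3004 and 2805), and wild type replicate 3 holds the highest Mbp (1445) and Apoe (301).

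Other genes of the pathway, 40 of 42 listed after passing the filter, also gave 0 calls in each comparison. The smallest p in homozygotes against wild type belonged to Gramd1a, a sterol carrier between membranes, with wild type at 109, 98.1, 91.9 and 95.4 CPM and homozygotes at 123, 134, 132 and 128. Its log2 difference was 0.39 (SE 0.13, edgeR adjusted p = 0.99). The 4 homozygote and 4 wild type libraries did not overlap for 4 of the 40 genes, with Gramd1a and Cyp27a1 higher and Scarb1 and Osbpl2, named after their values were seen, lower in homozygotes, where 1.29% of all genes lay wholly higher and 2.12% wholly lower. Cyp27a1, the sterol hydroxylase, was next: wild type averaged 7.03 ± 0.859 CPM and homozygotes 10.6 ± 1.74 (SD, 4 libraries each; edgeR adjusted p = 0.99). In heterozygotes against wild type it was Cyp7b1, an oxysterol hydroxylase, at 2.74 ± 1.12 against 5.98 ± 1.18 CPM (log2 difference -1.12, SE 0.37, adjusted p = 0.999), and then Lrp1, a receptor for apolipoprotein E, at 79.5 ± 8.28 against 63.2 ± 5.73 CPM (SD, 4 libraries each; adjusted p = 0.999). Between homozygotes and heterozygotes the smallest belonged again to Cyp7b1 (1.10, SE 0.37) and to Vldlr, another lipoprotein receptor (0.57, SE 0.23), both with an adjusted p of 1 in edgeR. In heterozygotes against wild type, 1 of the 40 genes lay wholly higher and 2 wholly lower, where 1.48% and 1.76% of all genes did. In homozygotes against heterozygotes it was 0 higher and 1 lower, where 1.03% and 0.998% of all genes were so. Of these 40 genes, 6 lay above the other 10 libraries in both interneuron-poor libraries and 9 below, where 10.3% and 10.6% of all genes did.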

How the data were processed

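RNA was sequenced from 12 libraries of laser-captured motor neurons, prepared by template switching and then a transposase kit, per the labels' protocols; these add no molecular identifiers and keep no strand. The authors deposited a table of raw counts by gene. Trim Galore 0.4.3, HISAT2 2.0.5 and genome build GRCm38 are named in the submitters' processing notes. The counting program and its annotation are not given in the sources used here. Total counts were 60886825 to 83504446, and the lowest member count was 144. Without molecular identifiers these reads are not independent molecules, so precision was taken from the spread between libraries. Libraries of 1 genotype differed by a chi-square per degree of freedom of at least 61 over 18 pairs. No pair agreed within counting error; this does not show whether libraries come from separate animals.

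Genes were kept by filterByExpr (16338 of 25965) in edgeR 4.0.16 (R 4.3.3), scaled by TMM and fitted by a robust quasi-likelihood model with 3 genotypes and 12 libraries, or with the number of mutant alleles as a slope. Adjusted p-values are Benjamini-Hochberg over all genes kept, two-sided, with a threshold of 0.05. CPM per kilobase used the longest principal transcript of GENCODE in GRCm38. Promoters are from RefSeq (GRCm38.p6). The fitting step was tested on simulated data. These had larger changes than the members and the same spread for every gene. That spread was smaller than the common coefficient of variation here (0.569), so the test does not measure power for the members. The members and lists were chosen with earlier results of these data known. All members are named. Values by library are given for the 5 smallest p-values in each comparison of a pair of genotypes, for the highest and lowest member per length in each role, and for Srebf2, Insig1 and Apoe; the enzymes of the interneuron-poor libraries and their markers were chosen after their values were seen. The alternatives were DESeq2 1.42.0, limma-voom (limma 3.58.1), DESeq2 size factors, 2 other filters, the replicate number as a block, only the 8 libraries compared, leaving out each library, and leaving out both interneuron-poor libraries.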

Additional observations from a re-analysis of the deposited data

Results flagged for a closer look

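Within groups of 4 libraries, 11 of 90 gene and genotype groups had a library standing apart by Dixon's criterion, where chance flags about 1 in 20. In each of the 11 it was replicate 1 and it was high, in heterozygotes for 6 and in homozygotes for 5. In heterozygote replicate 1, Hmgcs1 was at 394 CPM with the next library at 219, Pmvk at 114 (next 89.9), Fdps at 339 (next 215), Fdft1 at 345 (next 231), Msmo1 at 301 (next 177) and Dhcr7 at 74.8 CPM (next 47). In homozygote replicate 1, Hmgcs1 was at 326 CPM with the next at 217, Mvk at 92 (next 50.6), Fdft1 at 356 (next 222), Sqle at 287 (next 137) and Msmo1 at 268 CPM (next 167). The 11 groups belong to 8 genes of synthesis, with Hmgcs1, Fdft1 and Msmo1 in both genotypes, and they share the same 2 libraries, so they are not independent of each other.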

How the results depend on the processing

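No member was called in any of the 5 comparisons under any alternative. The 15 log2 differences of named members were recomputed 300 times with 0 reversals, and the adjusted p ran from 0.479 to 1. Of 150 mean levels recomputed, 0 moved by more than 1 SD. The alternatives could hardly move a mean that far, so this says little about how stable the levels are. The count of 14 enzymes above the other 10 libraries was the same with DESeq2 size factors. These lay close to the TMM factors (0.9382 against 0.9417 in heterozygote replicate 1, 0.9356 against 0.94 in homozygote replicate 1). They could therefore hardly change the count, and unscaled library totals were not tried. The sterol regulatory element was in 1 member promoter, and in 2 when searched as CACCCCAC. The median difference over the 30 members ran, on leaving out 1 library, from -0.15 to 0.15 in homozygotes against wild type, from -0.07 to 0.16 in heterozygotes against wild type and from -0.16 to 0.11 between the mutants, so its sign is not settled by these libraries. Genotypes share replicate numbers 1 to 4. Deviations of same-numbered libraries correlated from -0.0528 to 0.454, and 4 of 12 libraries correlated best with their own number, so the numbers were not taken to pair the samples. Of these 4, 3 were replicate 1 of each genotype, and the replicate 1 pairs correlated at 0.106, 0.114 and 0.454. Only the 0.454, between the interneuron-poor libraries, stood apart. Libraries of different numbers reached 0.127, in heterozygote replicate 2 with homozygote replicate 4. With the replicate block 0 members were called (over all genes in homozygotes against wild type, 6 against 1 without it, and 4 against 1 for the allele slope), and the member medians were -0.02, 0.04 and -0.04 in the same order. The spread between 4 libraries limits what can be seen: the fold of Sqle in homozygotes against wild type has a 95% interval from 0.639 to 1.84.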
